A study of Homo sapiens with 6 samples.

Results

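The genes described here are 42 that run the entry into mitosis, the exit from it and the splitting of the cell. They were taken by symbol from a list of CDK1 control genes, genes of the anaphase-promoting complex (APC/C), FOXM1 and MYBL2, and spindle and cytokinesis genes, and all 42 were among the 58735 genes of the count table. Kinesin and kinetochore genes were left out of it by rule, although KNSTRN, a kinetochore-fibre protein gene, is among the 42. RNA was sequenced from VCaP cells, an established human prostate cancer cell line, stably infected with a hairpin, which was either directed at NEDD9 (group shNEDD9) or had no target (group shNTC). Both groups thus carried an integrated hairpin and both grew in medium with 10% FBS, and each held 3 libraries that the design text calls biological triplicates. The number of hairpins and of separate infections is not given in the sources used here, so the p-values rest on differences among libraries that may be technical repeats.

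Entry into mitosis is driven by CDK1 bound to cyclin A or cyclin B. WEE1 and PKMYT1 hold the kinase back by phosphorylation, and CDC25 phosphatases release it. Exit requires the APC/C, a ubiquitin ligase that is switched on by CDC20 and later by FZR1 and that destroys cyclin B and securin. Many of these genes are transcribed in G2 and mitosis by FOXM1, MYBL2 and the MuvB complex, which binds a promoter element called CHR, and they are repressed in resting cells. They are therefore widely read as marks of proliferation in tumours, prostate cancer among them.

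Libraries held 3217276 to 9902002 counts. NEDD9 (chr6:11183298-11382348, GRCh38, minus strand) stood at 362, 339 and 365 CPM in the shNTC libraries and 137, 138 and 136 CPM in the shNEDD9 libraries, a decrease of 2.62-fold that left no overlap between the groups. CPM are counts per 1000000 counts of the tested genes in a library, with TMM factors that correct for differences in library composition. Of 13 markers of VCaP and luminal prostate cells, 12 stood above 100 CPM in both groups, and FOLH1 did so in shNTC. Their levels differed between the groups, from 3.91-fold lower (SLC45A3), 3.21-fold lower (FOLH1) and 2.69-fold lower (KRT8) to 3.36-fold higher (KLK3) in shNEDD9. The summed level of 8 fibroblast markers was 6.99 to 15.4 CPM in shNTC and 5.71 to 6.49 CPM in shNEDD9 libraries, with FAP and THY1 at 0 counts. 6 endothelial markers summed to 2.02 to 3.46 and 2.54 to 2.85 CPM with CDH5 at 0 counts, and 6 leukocyte markers to 3.76 to 5.66 and 4.36 to 5.24 CPM with CD3E at 0 counts.

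Promoters in the RefSeq table (GRCh38.p14) were found for 36 of the 42 genes, and 5 are printed because they belong to CDK1, to HMMR, PTTG1 and CCNB2, which are among the largest increases, and to FZR1, the smallest change with an entry. Each line gives the 250 bases before the start annotated in that table. The bases run 5′ to 3′ on the gene's own strand, which is the plus strand for all 5. They lie at chr10:60778081-60778330 (CDK1), chr5:163460382-163460631 (HMMR), chr5:160421605-160421854 (PTTG1), chr15:59104896-59105145 (CCNB2) and chr19:3506061-3506310 (FZR1). For HMMR, PTTG1, CCNB2 and FZR1 the RefSeq start lies inside the gene as placed by GENCODE 29, whose coordinates are given for the genes below. The HMMR window lies wholly within that gene, and those of PTTG1, CCNB2 and FZR1 do so in part. Capitals mark 2 kinds of motif on either strand, the CHR letters TTTGAA or TTCGAA and the CCAAT box, the binding element of the factor NF-Y.
CDK1: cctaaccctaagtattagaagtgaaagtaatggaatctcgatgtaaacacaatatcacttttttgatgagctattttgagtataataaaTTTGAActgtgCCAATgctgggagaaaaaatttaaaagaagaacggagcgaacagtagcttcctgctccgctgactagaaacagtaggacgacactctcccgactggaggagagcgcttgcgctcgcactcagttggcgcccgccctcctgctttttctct
HMMR: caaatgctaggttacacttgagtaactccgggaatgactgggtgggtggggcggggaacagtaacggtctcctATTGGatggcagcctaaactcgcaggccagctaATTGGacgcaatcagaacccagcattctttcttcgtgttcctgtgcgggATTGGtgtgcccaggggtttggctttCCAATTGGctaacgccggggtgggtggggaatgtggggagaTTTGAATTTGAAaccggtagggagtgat
PTTG1: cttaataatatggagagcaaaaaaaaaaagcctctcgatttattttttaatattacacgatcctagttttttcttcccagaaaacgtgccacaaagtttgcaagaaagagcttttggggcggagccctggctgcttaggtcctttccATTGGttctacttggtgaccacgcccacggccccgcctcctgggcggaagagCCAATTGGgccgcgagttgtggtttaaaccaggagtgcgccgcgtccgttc
CCNB2: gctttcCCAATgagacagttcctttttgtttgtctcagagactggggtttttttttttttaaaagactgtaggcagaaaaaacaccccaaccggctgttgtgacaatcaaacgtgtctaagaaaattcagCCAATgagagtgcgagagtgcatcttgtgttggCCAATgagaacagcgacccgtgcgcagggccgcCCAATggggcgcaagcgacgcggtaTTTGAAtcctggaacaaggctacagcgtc
FZR1: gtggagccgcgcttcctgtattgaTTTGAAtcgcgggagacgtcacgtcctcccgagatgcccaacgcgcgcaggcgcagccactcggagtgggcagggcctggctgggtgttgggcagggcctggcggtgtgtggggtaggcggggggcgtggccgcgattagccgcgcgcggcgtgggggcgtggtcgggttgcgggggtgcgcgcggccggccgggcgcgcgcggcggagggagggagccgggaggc
In CCNB2 the CHR letters began 29 bases before the start, behind CCAAT boxes at 54, 87, 120 and 244 bases before it. HMMR held CHR letters at 22 and 28 bases before its start. CCAAT matches there began at 66, 69, 95, 144 and 177 bases before the start, of which the pair at 66 and 69 is 1 palindrome read on both strands. PTTG1 held CCAAT boxes but no CHR letters in this window. CDK1 held CHR letters at 161 and a CCAAT box at 150 bases before its start. FZR1 held CHR letters only at 226 bases before its start and no CCAAT box.

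Over windows of 300 bases, from 250 before to 50 after the start, 22 of the 36 promoters (61.1%) held CHR letters, against 16.6% of all 27305 promoters in the table. CCAAT was in 24 of them (66.7%), against 35.7% of all promoters, and both motifs were in 18 (50%), against 6.58% of all promoters. The letters can share a base, since CCAAT ends and TTTGAA begins with T, but no CHR match overlapped a CCAAT match in the 5 printed promoters. The median log2 fold change was 1.43 for the 22 genes with CHR letters and 1.6 for the 14 without. A match of letters is a description of the sequence and not a site of binding.

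The mitotic genes were higher in shNEDD9 cells almost throughout. Of 42 genes, all of which passed the filter on low counts, 40 rose and 0 fell (edgeR quasi-likelihood test, Benjamini-Hochberg adjusted p under 0.05). Over all 13958 genes tested, 35.5% were called higher and 35.9% lower, or 71.4% in either direction. 34 of the 42 rose at least 2-fold, which 7.67% of all tested genes did, and 0 fell by that much, which 9.22% did. The groups did not overlap, with shNEDD9 higher, in the same number of genes as were called (40 of 42), against 35.7% of all tested genes. The median log2 fold change of the 42 was 1.54, or 2.91-fold, against 0.00 over all genes tested, and 30 of the 42 lay among the 5% of tested genes with the largest log2 fold changes.

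WEE1 and FZR1 were the 2 exceptions, and a count of 0 lower genes was also found with DESeq2 and with limma-voom, while 1 gene (WEE1) was lower at an unadjusted p under 0.05 and was called lower in 3 of 16 alternatives. Among the 40 that rose, the largest adjusted p was 1.29e-11 (LIN54, edgeR with Benjamini-Hochberg adjustment). Together the 42 genes took 0.194% to 0.196% of the counts of the shNTC libraries and 0.535% to 0.543% of those of the shNEDD9 libraries, 2.77-fold more. Mitochondrially encoded genes took 3.29% to 3.40% of the counts in shNTC and 2.39% to 2.43% in shNEDD9 libraries. With those genes left out before scaling, 40 of the 42 genes rose and 34 rose at least 2-fold, as with them. In bulk RNA a larger share of cells in G2 and mitosis and more RNA of these genes per cell cannot be told apart.

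**Figure D1:**
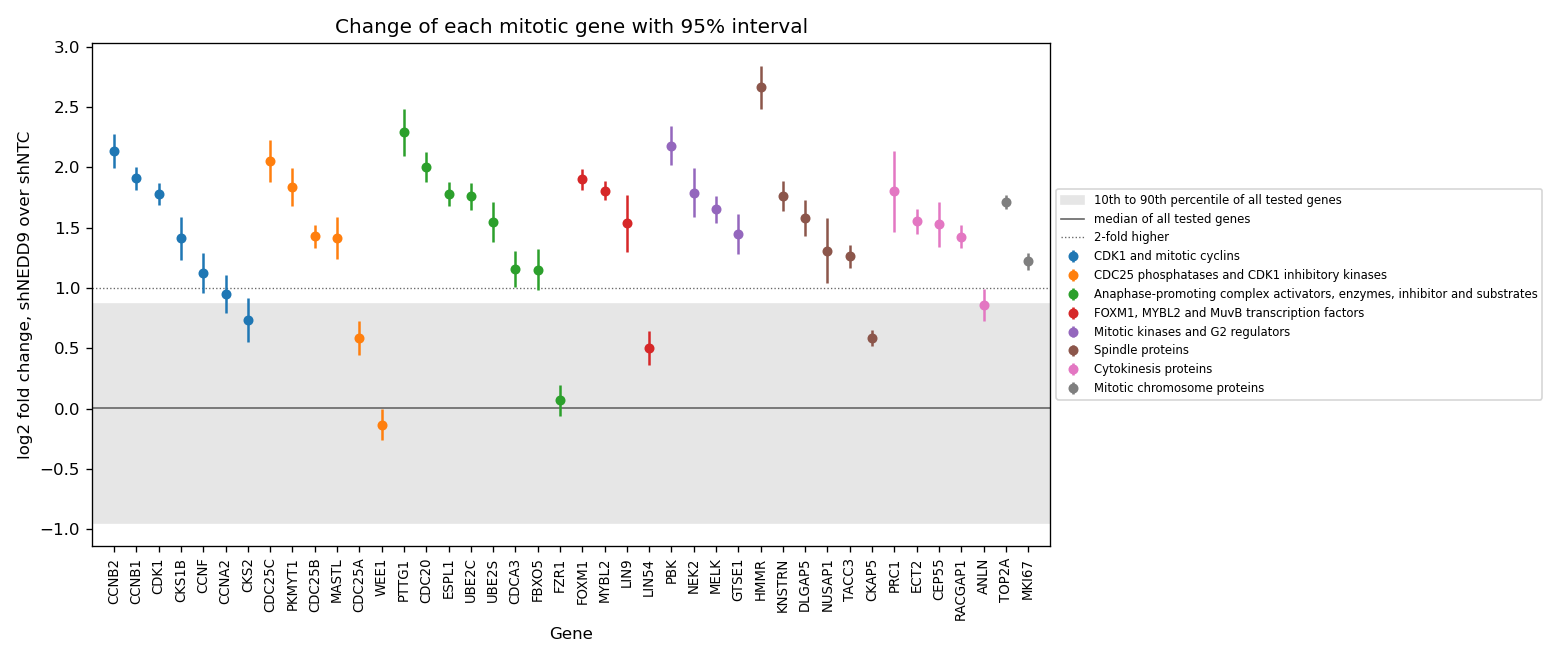
Log2 fold change of each of the 42 genes, shNEDD9 over shNTC, with its 95% interval from the edgeR fit (bars), by role (colours); the grey band spans the 10th to 90th percentile of all 13958 tested genes and the dotted line marks a 2-fold increase. HMMR stands highest at 2.67, and FZR1 (0.07) and WEE1 (-0.13) lie close to the median of all genes.

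CDK1 and its cyclins rose together, by unequal amounts. CDK1 (chr10:60778331-60794852, plus strand) stood at 64.7, 63.5 and 70.6 CPM in the shNTC libraries and 220.4, 225 and 238 CPM in the shNEDD9 libraries. The 3 shNEDD9 values all lay above the shNTC values, and the increase was 3.44-fold (log2 fold change 1.78, SE 0.05). CCNB1 (chr5:69167010-69178245), the main mitotic cyclin gene, stood at 53.8, 60.3 and 60.7 CPM in the shNTC libraries and 214, 209.8 and 225 CPM in the shNEDD9 libraries and rose 3.76-fold. CCNB2 (chr15:59105078-59125045), its Golgi-associated relative, stood at 24.5, 23.6 and 22.7 CPM in the shNTC libraries and 105, 105 and 103 CPM in the shNEDD9 libraries. Its increase of 4.39-fold was the largest of the cyclin genes, and within each library the count ratio of CCNB2 to CCNB1 was 0.455, 0.391 and 0.374 in shNTC and 0.488, 0.50 and 0.456 in shNEDD9. CCNA2, the cyclin of S phase and early mitosis, rose less, from 27.8 ± 2.03 to 52.7 ± 2.22 CPM (SD, n = 3 each, 1.93-fold). CCNF, which encodes an F-box protein that marks substrates for degradation and activates no CDK, rose 2.18-fold from 22.2 ± 0.909 to 47.9 ± 0.724 CPM (n = 3 each).

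The genes of the small CDK-binding subunits, CKS1B and CKS2, both rose. CKS1B stood at 17.6, 20.7 and 16.3 CPM in the shNTC libraries and 45.1, 45.1 and 50.2 CPM in the shNEDD9 libraries, and CKS2 at 21.1, 17.6 and 25.4 CPM in the shNTC libraries and 35.1, 36.9 and 37.5 CPM in the shNEDD9 libraries. CKS1B rose 2.66-fold and CKS2 1.66-fold, both without overlap between the groups. The count ratio of CKS2 to CKS1B was 1.2, 0.848 and 1.56 in shNTC and 0.777, 0.817 and 0.747 in shNEDD9, so it spread widely among the shNTC libraries. Its log2 difference of -0.58 was -0.81 without shNTC replicate 2 and -0.37 without shNTC replicate 3. 6 pseudogenes named after CKS1B held 0 to 27 counts each over all libraries against 1423 for CKS1B.

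Among the enzymes that set CDK1 phosphorylation, all 3 phosphatase genes and 1 of the 2 inhibitory kinase genes rose. CDC25C (chr5:138285265-138338355, minus strand), the phosphatase of mitotic entry, stood at 17.2, 12.3 and 14.6 CPM in the shNTC libraries and 62.6, 65 and 62.4 CPM in the shNEDD9 libraries. This was a rise of 4.14-fold, the largest of the 3 CDC25 genes. CDC25B, which starts CDK1 activation at the centrosome, rose 2.69-fold from 66.6 ± 1.19 to 179 ± 2.57 CPM (n = 3 each). CDC25A, which also acts at the start of S phase, rose 1.5-fold from 37.7 ± 1.46 to 56 ± 0.686 CPM (n = 3 each). Of the 2 opposing kinases, PKMYT1 stood at 21.4, 17.9 and 17.8 CPM in the shNTC libraries and 68.6, 71 and 68.5 CPM in the shNEDD9 libraries, an increase of 3.57-fold. 31.6% of the exon bases of PKMYT1 overlap PAQR4 or KREMEN2 on the opposite strand. Reads of opposite strands cannot be told apart here because the strand setting of the counting is not given. The same limit holds for smaller overlaps in other genes described here, the largest being 15.9% in FOXM1, 12.2% in MASTL and 11.8% in CCNF.

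WEE1 (chr11:9573681-9593457, plus strand), the nuclear inhibitory kinase, stood at 61.3, 58.1 and 61 CPM in the shNTC libraries and 49.2, 55.8 and 58.7 CPM in the shNEDD9 libraries. The groups overlapped, since the highest shNEDD9 library lay above the lowest shNTC library. The log2 fold change was -0.13 (95% interval -0.26 to -0.01) and was not called (edgeR with Benjamini-Hochberg adjustment, adjusted p = 0.0560). It was called lower in 3 of 16 alternatives, among them an edgeR adjusted p of 0.0429 without shNTC replicate 2 and 0.0179 without shNEDD9 replicate 3. The adjusted p ran from 0.0179 to 0.454 over the 16 (edgeR, DESeq2 and limma-voom). The count ratio of CDC25C to WEE1 was 0.281, 0.211 and 0.238 in shNTC and 1.27, 1.16 and 1.06 in shNEDD9, 4.82-fold higher in shNEDD9. MASTL, the Greatwall kinase that restrains the phosphatase PP2A-B55 during mitosis, rose 2.66-fold from 18.1 ± 1.89 to 50.1 ± 3.78 CPM (n = 3 each).

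**Figure D2:**
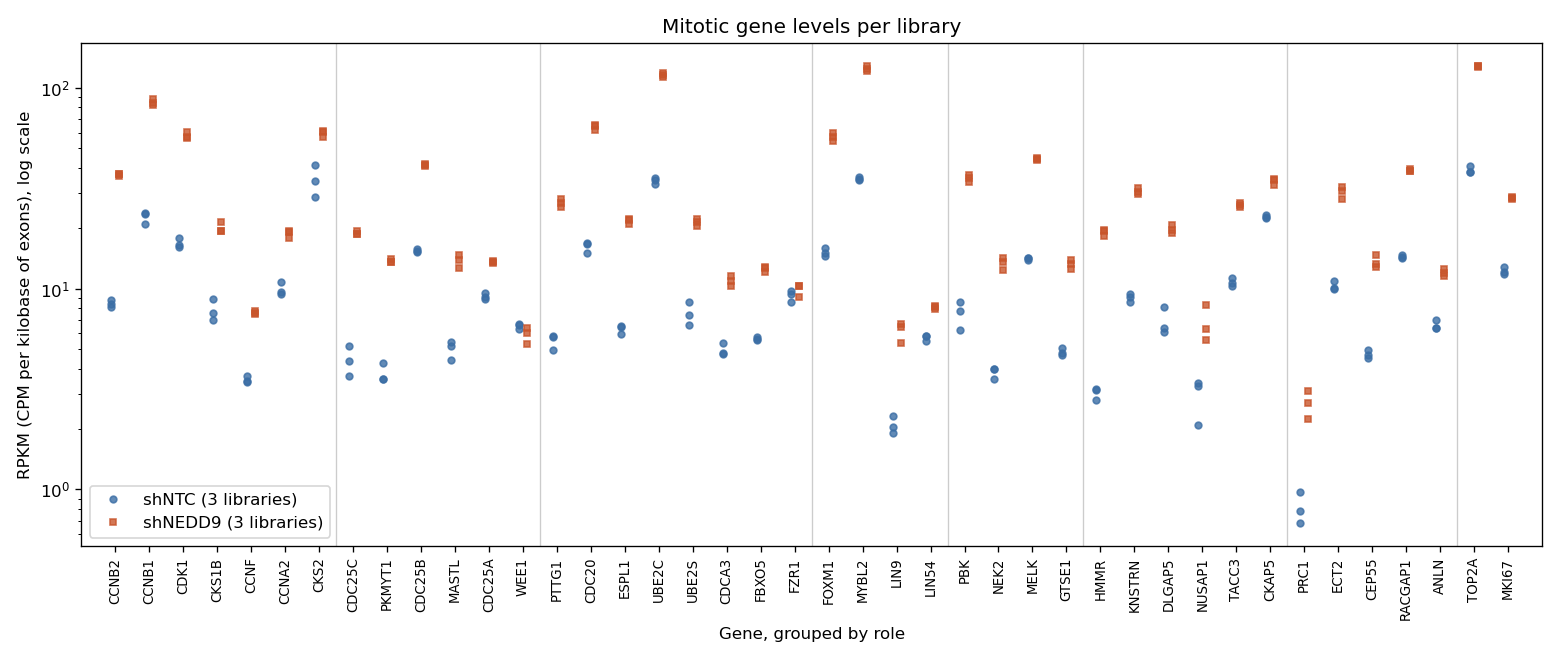
Level of each gene in each of the 6 libraries, as CPM per kilobase of exons (RPKM) on a log axis, with shNTC as circles and shNEDD9 as squares and genes grouped by role. The groups separate for all genes but WEE1 and FZR1, and TOP2A, MYBL2 and UBE2C are the highest in shNEDD9.

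Of the 2 activators of the APC/C, CDC20 rose and FZR1 was not called. CDC20 (chr1:43358955-43363203, plus strand), which activates it at the start of anaphase, stood at 33.9, 34.2 and 30.5 CPM in the shNTC libraries and 127, 133 and 132 CPM in the shNEDD9 libraries and rose 4.01-fold. FZR1 (chr19:3506273-3538330, plus strand), which takes over at mitotic exit and in G1, stood at 54.7, 49.6 and 56.3 CPM in the shNTC libraries and 59.8, 59.8 and 53 CPM in the shNEDD9 libraries. The FZR1 groups overlapped, and its log2 fold change of 0.07 (95% interval -0.06 to 0.20) was not called (edgeR with Benjamini-Hochberg adjustment, adjusted p = 0.344). The whole interval lies below the log2 fold change of CDC20, 2.0 (SE 0.06). The count ratio of CDC20 to FZR1 was 0.619, 0.69 and 0.542 in shNTC and 2.12, 2.23 and 2.49 in shNEDD9, 3.71-fold higher in shNEDD9.

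The ubiquitin-conjugating enzymes that serve the APC/C both rose. UBE2C, which starts ubiquitin chains on its substrates, stood at 42.6, 44.9 and 45.5 CPM in the shNTC libraries and 147, 149 and 153 CPM in the shNEDD9 libraries (3.39-fold). UBE2S, which lengthens those chains, rose 2.92-fold from 21 ± 2.74 to 59.7 ± 2.26 CPM (n = 3 each). FBXO5, the APC/C inhibitor also called EMI1, rose 2.22-fold from 21.6 ± 0.387 to 47.9 ± 1.38 CPM (n = 3 each), so activator, enzymes and inhibitor were higher at the same time. Pseudogenes named after CDC20, UBE2C and UBE2S held at most 0.513% of the counts of their parent gene.

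Securin and separase, the lock and the protease that cuts cohesin at anaphase, both rose. PTTG1 (chr5:160421822-160428744, plus strand), which encodes securin, stood at 9.95, 11.6 and 11.7 CPM in the shNTC libraries and 56.6, 51.4 and 53.6 CPM in the shNEDD9 libraries. Its increase of 4.9-fold (log2 fold change 2.29, SE 0.10) was the second largest of the 42, and its near-copies PTTG2 and PTTG3P held 2 and 1 counts. ESPL1, which encodes separase, rose 3.43-fold from 55.9 ± 2.68 to 194 ± 5.89 CPM (n = 3 each). The count ratio of PTTG1 to ESPL1 was 0.172, 0.22 and 0.205 in shNTC and 0.303, 0.259 and 0.274 in shNEDD9, 1.4-fold higher in shNEDD9. CDCA3, an APC/C substrate that promotes the loss of WEE1 protein, rose 2.23-fold from 28 ± 1.89 to 61.7 ± 3.71 CPM (n = 3 each).

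FOXM1, MYBL2 and the MuvB subunit genes on the list, LIN9 and LIN54, all rose. FOXM1 (chr12:2857681-2877155, minus strand) stood at 71.7, 73.8 and 78.1 CPM in the shNTC libraries and 291, 280.3 and 268 CPM in the shNEDD9 libraries (3.74-fold). MYBL2 (chr20:43667019-43716496, plus strand), which encodes B-MYB, stood at 100.3, 96.1 and 98.1 CPM in the shNTC libraries and 356, 346 and 337 CPM in the shNEDD9 libraries (3.5-fold). Their ratios overlapped between the groups, at 1.4, 1.3 and 1.26 in shNTC and 1.22, 1.23 and 1.26 in shNEDD9 for MYBL2 over FOXM1. Of the MuvB subunits, LIN9 rose 2.9-fold from 9.31 ± 0.956 to 27.3 ± 3.08 CPM (n = 3 each). LIN54, the subunit that contacts the CHR, stood at 39.3, 39.3 and 36.9 CPM in the shNTC libraries and 54.5, 53.4 and 55.3 CPM in the shNEDD9 libraries. Its increase of 1.42-fold was the smallest of those called, and the count ratio of FOXM1 to LIN54 was 1.83, 1.88 and 2.11 in shNTC and 5.34, 5.25 and 4.84 in shNEDD9.

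The mitotic kinases and G2 regulators all rose at least 2-fold. NEK2, a kinase of centrosome separation, stood at 12.4, 11 and 12.4 CPM in the shNTC libraries and 38.4, 42.2 and 43.9 CPM in the shNEDD9 libraries (3.46-fold). PBK, a mitotic protein kinase gene, stood at 18.6, 13.5 and 16.7 CPM in the shNTC libraries and 80.2, 73.8 and 76.9 CPM in the shNEDD9 libraries. At 4.53-fold it had the largest increase of the 4. MELK, a kinase gene of proliferating cells, rose 3.14-fold from 43.4 ± 0.596 to 137 ± 1.62 CPM (n = 3 each), and GTSE1, which encodes a microtubule-binding regulator of p53, rose 2.73-fold from 20.5 ± 0.843 to 56.1 ± 3.03 CPM (n = 3 each).

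Spindle genes held both the largest increase and a small increase. HMMR (chr5:163460203-163491945, plus strand), which encodes a spindle and hyaluronan-binding protein, stood at 12.5, 12.3 and 11 CPM in the shNTC libraries and 72.2, 76.6 and 76.7 CPM in the shNEDD9 libraries. The increase was 6.35-fold (log2 fold change 2.67, SE 0.09), rank 53 of the 13958 tested genes. KNSTRN, a kinetochore-fibre protein gene, rose 3.39-fold from 32.9 ± 1.4 to 111 ± 3.84 CPM (n = 3 each), and DLGAP5, which encodes the microtubule stabiliser HURP, rose 2.99-fold from 25.2 ± 4.05 to 72.4 ± 3.18 CPM (n = 3 each). TACC3 and CKAP5 encode partners that crosslink and lengthen spindle microtubules. TACC3 rose 2.4-fold, from 70.1, 67.6 and 73.4 CPM to 166, 174 and 169.6 CPM. CKAP5 rose 1.5-fold, from 193, 199.8 and 195 CPM to 298, 299.6 and 282 CPM. Their count ratio was 0.364, 0.338 and 0.376 in shNTC and 0.556, 0.58 and 0.602 in shNEDD9, so the partners moved by unequal amounts.

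NUSAP1, a microtubule-bundling protein gene (chr15:41332694-41381050), and PRC1, the crosslinker of the central spindle (chr15:90966038-90995629), had the lowest counts of the 42. NUSAP1 stood at 6.05, 9.74 and 9.39 CPM in the shNTC libraries and 15.9, 18.2 and 23.8 CPM in the shNEDD9 libraries and rose 2.48-fold. PRC1 stood at 4.3, 5.34 and 3.76 CPM in the shNTC libraries and 12.4, 17.2 and 14.9 CPM in the shNEDD9 libraries and rose 3.49-fold on 73 counts over the shNTC libraries. In GENCODE 29, 62.2% of the exon bases of NUSAP1 lie in exons of AC087721.2 on the same strand, and 57.6% of those of PRC1 in exons of AC068831.7. AC087721.2 held 0 counts and AC068831.7 held 207, against 610 for NUSAP1 and 430 for PRC1. How reads in shared exons were assigned is not given in the sources used here, so the levels of NUSAP1 and PRC1 are uncertain.

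All 5 cytokinesis genes rose. ECT2, the exchange factor that starts the cleavage furrow at the cell equator, stood at 59.98, 55.3 and 54.8 CPM in the shNTC libraries and 154, 169 and 176 CPM in the shNEDD9 libraries (2.93-fold). RACGAP1, its partner in centralspindlin, stood at 64.4, 64.1 and 65.9 CPM in the shNTC libraries and 172, 178 and 173 CPM in the shNEDD9 libraries (2.69-fold). CEP55, which brings the abscission machinery to the midbody, rose 2.89-fold from 15.4 ± 0.688 to 44.6 ± 3.21 CPM (n = 3 each). ANLN, which encodes the actin-binding ring protein anillin, rose least of the 5, 1.81-fold from 39.6 ± 2.05 to 72.3 ± 2.95 CPM (n = 3 each).

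TOP2A and MKI67, a pair used as proliferation markers, rose by unequal amounts. TOP2A (chr17:40388516-40417950, minus strand), which untangles sister DNA, stood at 246, 244 and 262 CPM in the shNTC libraries and 814, 829.6 and 826 CPM in the shNEDD9 libraries (3.27-fold). MKI67 (chr10:128096659-128126385, minus strand), which encodes the Ki-67 protein that coats mitotic chromosomes, stood at 154, 163 and 152 CPM in the shNTC libraries and 367, 361 and 360.0 CPM in the shNEDD9 libraries (2.33-fold). The count ratio of MKI67 to TOP2A was 0.629, 0.669 and 0.581 in shNTC and 0.45, 0.436 and 0.436 in shNEDD9, lower in every shNEDD9 library.

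**Figure D3:**
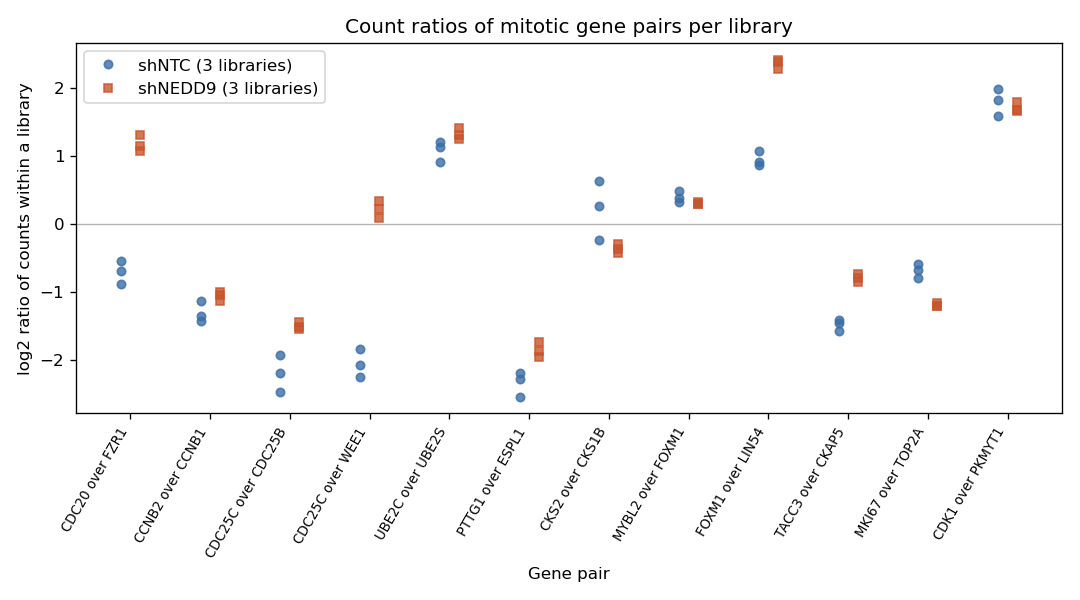
Log2 of the count ratio of 12 gene pairs within each library (circles shNTC, squares shNEDD9). The ratios of CDC20 to FZR1, of CDC25C to WEE1 and of FOXM1 to LIN54 shifted most, and those of MYBL2 to FOXM1 and CDK1 to PKMYT1 overlapped between the groups.

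Ratios within a library do not depend on scaling between libraries, and they were tested for 12 pairs of partners or opponents. For 10 pairs the two-sided exact permutation test gave p = 0.1, the smallest that 3 libraries against 3 allow, and an adjusted p of 0.12 over the 12 pairs (n = 3 each). No pair could therefore pass the threshold. In these 10 pairs the ratios did not overlap between the groups, and the share of other gene pairs that do so was not taken. The exact permutation p was 0.2 (adjusted 0.218) for MYBL2 over FOXM1 and 0.6 (adjusted 0.6) for CDK1 over PKMYT1. The ratio of CDK1 to PKMYT1 was 3.03, 3.54 and 3.96 in shNTC and 3.21, 3.17 and 3.48 in shNEDD9, and that of UBE2C to UBE2S was 2.31, 1.88 and 2.2 in shNTC and 2.37, 2.48 and 2.67 in shNEDD9. For CDC25C over CDC25B it was 0.263, 0.181 and 0.219 in shNTC and 0.345, 0.369 and 0.35 in shNEDD9, 1.63-fold higher in shNEDD9.

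Levels were compared between genes as RPKM, CPM divided by the kilobases of annotated exons. TOP2A had the highest mean in both groups, at 38.9 ± 1.58 RPKM in shNTC and 128 ± 1.24 RPKM in shNEDD9 (SD, n = 3 each). MYBL2 came next, at 35.4 ± 0.752 RPKM in shNTC and 125 ± 3.49 RPKM in shNEDD9. In shNEDD9, TOP2A and MYBL2 did not differ beyond the spread of their libraries. In shNTC, MYBL2, CKS2 (34.8 ± 6.34 RPKM) and UBE2C (34.5 ± 1.19 RPKM) did not differ beyond the spread of their libraries. In shNEDD9, UBE2C reached 116 ± 2.47 RPKM, CCNB1 84.6 ± 3.04 RPKM and CDC20 64.1 ± 1.76 RPKM. FZR1 went from rank 17 to rank 36 of the 42 and WEE1 from rank 26 to rank 41. PRC1 was lowest in both groups, but 57.6% of its exon bases are shared with AC068831.7, so its RPKM is uncertain.

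The 42 genes lie on 18 chromosomes. For each gene the median log2 fold change of the 20 nearest tested genes, 10 on each side, was taken from GENCODE 29 coordinates. These medians ran from -0.68 (around CKS2) to 0.42 (around DLGAP5), with a median of -0.04. Each of the 42 genes had a higher log2 fold change than the median of its neighbours. The smallest increase called, LIN54 at 0.50, already lay above the highest of these medians, so this count restates the increases. The same share over all tested genes was not taken. For FZR1 the gap was smaller than the SE (0.07, SE 0.066, against 0.05). For WEE1 the values were -0.13 (SE 0.065) against -0.24. These gaps were not tested. CCNB2 rose 4.39-fold among neighbours with a median log2 fold change of -0.49.

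**Figure D4:**
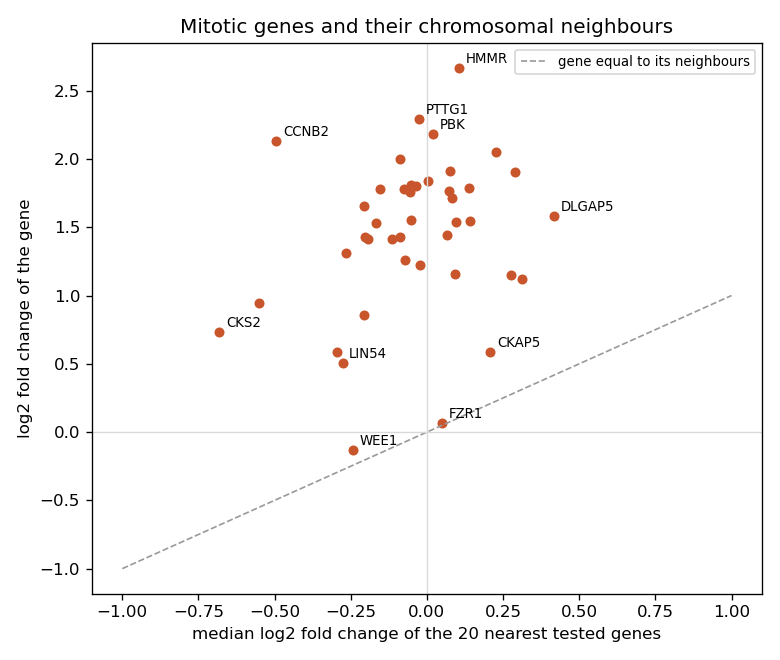
Log2 fold change of each of the 42 genes (vertical axis) against the median log2 fold change of its 20 nearest tested genes (horizontal axis), with the line of equality dashed. All 42 points lie above the line, FZR1 barely so (0.07 against 0.05), and the neighbour medians stay between -0.68 and 0.42.

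Other genes of the same steps, listed by their role, moved in both directions. Of 133 such genes 125 passed the filter, 62 rose and 37 fell (49.6% and 29.6%, against 35.5% and 35.9% of all genes tested). A rise of at least 2-fold was seen in 30 (24%, against 7.67% of all genes tested). The median log2 fold change of the 125 was 0.16. Of 17 further genes known to be expressed in G2 and mitosis, 15 rose and 0 fell, and 13 passed a 2-fold increase. The median log2 fold change of these genes was 1.42. DEPDC1, a transcriptional corepressor gene, rose 3.95-fold, the phosphatase gene CDKN3 3.54-fold and ARHGAP11A 3.44-fold. The 2 not called were the tubulin genes TUBA1C and TUBB4B, named after their values were seen.

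Of 21 other spindle genes 16 rose and 3 fell (76.2% and 14.3%, against 35.5% and 35.9% of all genes tested). The median log2 fold change of these genes was 0.89. PSRC1 rose 3.23-fold, ASPM, a spindle pole gene mutated in microcephaly, 3.18-fold, and CKAP2L 3.17-fold. TACC1, a paralogue of TACC3, was 1.61-fold lower, NUMA1, which anchors dynein at the poles, 1.51-fold lower and CLASP2 1.23-fold lower.

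Of 14 core subunits of the APC/C 8 rose and 2 fell (57.1% and 14.3%, against 35.5% and 35.9% of all genes), and log2 fold changes ran from -0.33 to 0.79 around a median of 0.27. ANAPC15 rose 1.73-fold, the scaffold subunit ANAPC1 1.52-fold and CDC27 1.48-fold, while ANAPC4 was 1.26-fold and ANAPC13 1.15-fold lower. Of 8 tested partners in the DREAM and MuvB complexes 5 rose and 1 fell. RBL1, which encodes the pocket protein p107, went from 8.29 ± 2.3 to 26.2 ± 0.739 CPM (n = 3 each, 3.21-fold), TFDP1 rose 1.52-fold and RBBP4 1.43-fold. RBL2, which encodes p130, the pocket protein of resting cells, was 1.14-fold lower.

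A list of 9 tested genes held the subunits of the PP2A-B55 phosphatase, which MASTL restrains, and its inhibitors ENSA and ARPP19. Of these 9, 6 fell, all of them phosphatase subunits, and 2 rose, where 35.9% of all tested genes fell and 35.5% rose, with a median log2 fold change of -0.34. PPP2R2B, a B55 regulatory subunit, went from 9.73 ± 1.38 to 2.3 ± 0.247 CPM (n = 3 each, 4.3-fold lower), the scaffold gene PPP2R1B was 1.66-fold and the catalytic gene PPP2CB 1.58-fold lower. The 2 that rose were the inhibitors, ENSA by 1.11-fold and ARPP19 by 1.07-fold. Larger log2 fold changes than theirs were held by 39.8% and 43.6% of all tested genes. A link between this list and the rise of MASTL was not tested. The gene not called was the other catalytic gene, PPP2CA, at 186 ± 6.03 CPM in shNTC and 183 ± 2.46 CPM in shNEDD9 (n = 3 each). The B55 subunit gene PPP2R2A did not pass the filter, with 0, 0 and 2 counts in the shNTC libraries and 0, 2 and 0 in the shNEDD9 libraries. PPP2CA and PPP2R2A were named after their values were seen. Of the 3 genes of the CDK-activating kinase 2 rose and 0 fell, with CDK7 1.6-fold and MNAT1 1.5-fold higher. The third gene, CCNH, went from 28.3 ± 0.893 to 29.1 ± 0.875 CPM (n = 3 each), with overlapping groups. Of 6 SCF ligase genes 1 rose and 3 fell, with SKP2 2.35-fold higher, BTRC 1.3-fold, SKP1 1.22-fold and FBXW11 1.13-fold lower.

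Of 15 contractile ring genes 8 fell and 3 rose (53.3% and 20%, against 35.9% and 35.5% of all genes), with a median log2 fold change of -0.21. DIAPH3, a formin gene, went from 12.3 ± 1.8 to 53.9 ± 1.03 CPM (n = 3 each, 4.29-fold), CIT, which encodes citron kinase, rose 3.49-fold and PFN1 1.11-fold. The myosin genes MYH9 and MYH14 were 1.92-fold and 1.89-fold lower and DIAPH2 1.53-fold lower. Of 17 tested ESCRT abscission genes 11 fell and 2 rose (64.7% and 11.8%), with a median of -0.31. CHMP2A was 1.61-fold, PDCD6IP, which encodes ALIX, 1.6-fold and CHMP2B 1.49-fold lower, and ZFYVE19 and CHMP4C, genes of the abscission checkpoint, rose 1.51-fold and 1.3-fold.

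Of 15 tested relatives of the 42 genes 8 rose and 3 fell (53.3% and 20%, against 35.5% and 35.9% of all genes tested). The median log2 fold change of these relatives was 0.22. TOP2B, which encodes the topoisomerase that cells express whether or not they divide, went from 481 ± 1.44 to 389.8 ± 4.34 CPM (n = 3 each, 1.23-fold lower), where TOP2A rose 3.27-fold. NEK1, a cilium-associated relative of NEK2, was 2.39-fold lower, where NEK2 rose 3.46-fold. MYBL1, a relative of MYBL2, rose 4.61-fold from 1.58 ± 0.708 to 6.65 ± 1.13 CPM (n = 3 each). MYBL1, FBXO43 and CDC14B passed the filter on low counts only through the group in which they were high. They are part of the counts above, MYBL1 and FBXO43 among the 8 that rose and CDC14B among the 3 that fell. MYBL1 had 6, 7 and 11 counts in the shNTC libraries, too few for a firm fold. FBXO43, a relative of FBXO5 known for its role in meiosis, had 5, 2 and 7 counts in the shNTC libraries and 22, 31 and 29 in the shNEDD9 libraries, too few in shNTC for a firm fold. CDC14B, a phosphatase gene, had 15, 11 and 13 counts in the shNTC libraries and 3, 6 and 13 in the shNEDD9 libraries. Its relative CDC14A rose 3.59-fold from 6.2 ± 0.327 to 22.6 ± 1.51 CPM (n = 3 each).

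**Figure D5:**
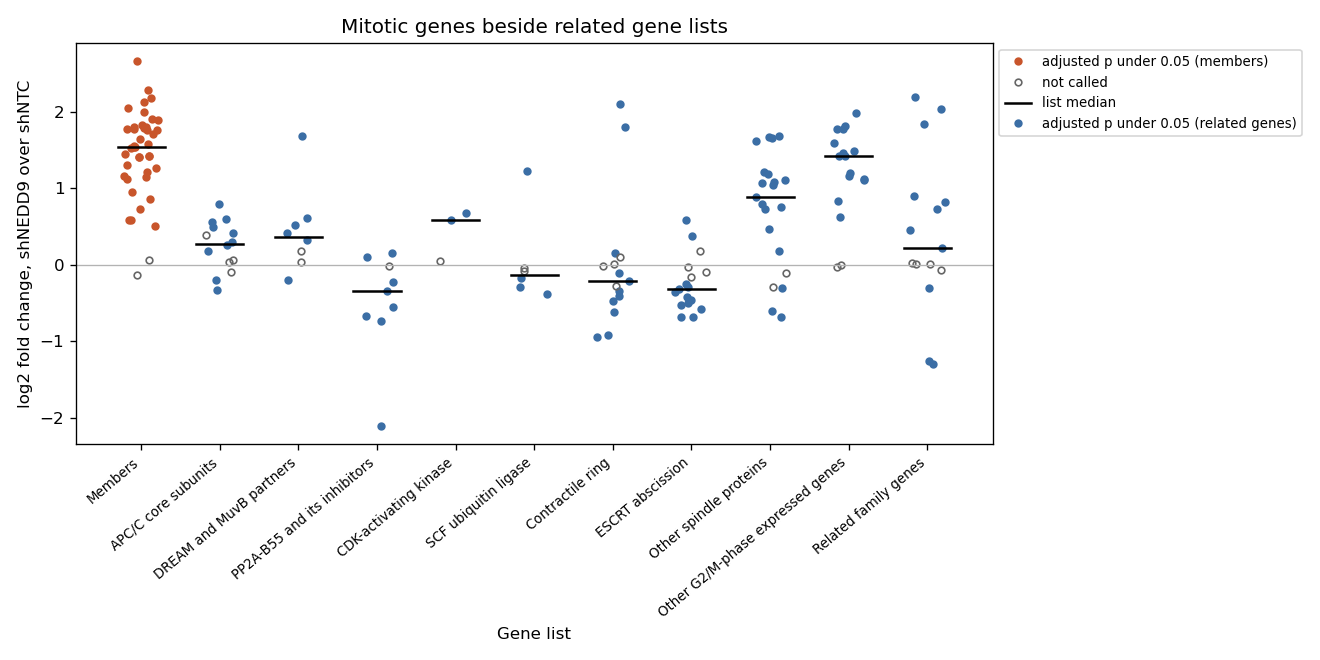
Log2 fold change of the 42 genes (orange) and of the tested genes of 10 related lists (blue), with open circles for genes not called and black lines for medians. The median is 1.54 for the 42 genes, 1.42 for other genes expressed in G2 and mitosis, 0.27 for APC/C core subunits and -0.31 for ESCRT abscission genes.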

How the data were processed

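The values of all 6 libraries are counts per gene, whole numbers deposited by the authors without scaling. The submitters' processing notes name STAR 2.5.3a, cutadapt 1.9, FastQC 0.11.5, Subread 1.6.2 and featureCounts, and the builds GRCh38 and hg19 without their roles. Per the labels' protocols the library kit was stranded and took total RNA. The strand setting and annotation release are not given in those notes or the labels. 1 row without identifier was left out. All 58735 identifiers occur in GENCODE 29 (GRCh38), which gave coordinates and exon lengths.

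Groups followed the shRNA in the sample titles. Counts were fitted with edgeR 4.0.16 in R 4.3.3 (glmQLFit with robust estimation, glmQLFTest) over 13958 genes that passed filterByExpr at a minimum count of 10, with TMM factors of 0.993 to 1.01 and no covariate, after a test on simulated data. Benjamini-Hochberg adjusted p under 0.05 was called a change. SE is the unmoderated log2 fold change divided by the square root of F. Pairs of libraries within a group differed little beyond sampling (chi-square of 1.14 to 1.2 per degree of freedom, common coefficient of variation 1.65%), which shows that no column is a copy and does not tell technical repeats from separate cultures. CPM refer to the total over the tested genes times the TMM factor. 3 counts equal 0.303 to 0.932 per 1000000 counts of the whole library, and every one of the 42 genes held at least 17 counts in every library. Ratios were tested with scipy 1.17.1.

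The 42 genes and the related lists were chosen with earlier results of these data known. All 42 are named. From each related list up to 3 called genes with the largest log2 fold change in each direction at a mean of at least 1 CPM are named. As alternatives the counts were also fitted with DESeq2 1.42.0 and limma-voom (limma 3.58.1), scaled by upper-quartile or RLE factors or by totals alone, filtered at a mean of 1 CPM or not filtered, thinned to the smallest library, stripped of mitochondrial genes, fitted with the replicate number as a block, and fitted without each library in turn.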

Additional observations from a re-analysis of the deposited data

How the results depend on the processing

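Over 16 alternatives 40 of the 42 genes rose and 34 rose at least 2-fold in each, and the median log2 fold change ran from 1.51 to 1.58. The count of lower genes was 0 in all but 3 of them. With the replicate number as a replicate block it was 1, WEE1 (log2 fold change -0.14, edgeR adjusted p = 0.0436), and over the fits that leave out a library it ran from 0 to 1, with WEE1 called without shNTC replicate 2 or shNEDD9 replicate 3. The block changed no other call among the 42 genes. Same-numbered libraries shared only a number, since their deviations from the group means correlated at 0.00338 to 0.00645. Each library correlated best with its own number, but differently numbered pairs lay at -0.0055 to 0.000486, so all values were very small. Their order does not show that libraries were paired. NEDD9 stayed between -1.41 and -1.36 on the log2 scale. Over all genes, 4084 to 5111 were called higher and 4122 to 5061 lower, and of the related genes 60 to 63 were higher and 33 to 38 lower. In the last 150 bases of the promoter window CHR letters were in 19, CCAAT in 20 and both in 14 of 36 promoters, against 7.43%, 22% and 1.86% of all promoters. Counts were lowest for NUSAP1 and PRC1, with 17 counts of PRC1 in the smallest library. Both share exon bases with another gene, and how reads there were assigned is not given.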
